A study of Mus musculus with 24 samples.

Results

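The comparison described here sets all 16 aorta libraries from mice fed a COX-2 inhibitor against the 8 libraries from mice fed plain chow. Members were chosen by group label alone, 8 libraries of celecoxib chow and 8 of rofecoxib chow, so the comparison uses 24 of the 24 libraries in the series. The drugs were weighted equally, and the average effect is the mean of the celecoxib and rofecoxib group means minus the control mean on the log2 scale. All mice were wild-type adult C57BL/6 males of 10 to 12 weeks. They ate chow for 3 weeks with celecoxib at 100 mg/kg/day, with rofecoxib at 50 mg/kg/day, or without drug. Thoracic aorta was taken at zeitgeber time 11, and polyA RNA was sequenced from TruSeq libraries. The doses of the drugs differ, so a difference between them is one between these 2 diets as fed.

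COX-2, the product of Ptgs2, is the inducible cyclooxygenase that turns arachidonic acid into prostaglandin H2, from which synthases make prostacyclin, prostaglandin E2 and thromboxane. In the vessel wall, endothelium and smooth muscle make prostacyclin, which relaxes smooth muscle and restrains platelets, while thromboxane constricts vessels and activates platelets. Celecoxib, a sulfonamide, and rofecoxib, a methylsulfone, both block COX-2 in preference to COX-1, the product of Ptgs1, and rofecoxib was withdrawn because of cardiovascular events. An inhibitor acts on the enzyme, so the transcripts of Ptgs1 and Ptgs2 do not check whether it was blocked.

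Library totals were nearly equal, at 21652432 to 21687906 counts (a range of 0.164%), and which step made them so is not stated. The tissue matched its label, with 25 smooth muscle genes together at 63347 to 86017 CPM (counts scaled to library size) in controls, 74015 to 90815 with celecoxib and 79681 to 94035 with rofecoxib. Some libraries stood apart in markers of tissue around the aorta. Control 6 held 2068 CPM summed over 18 brown adipocyte markers, against 374 to 813 in the other controls and 266 to 820 in the drug libraries, and it had the lowest smooth muscle sum of the 24. Rofecoxib 2 held 654 CPM over 17 cardiac muscle markers, against 92.0 to 135 in the other rofecoxib libraries. The serial numbers in the sample titles follow on from celecoxib to rofecoxib, and the controls come after a gap. If these numbers stand for an order of handling, which no label says, it cannot be told apart from drug against control. The labels do not tie libraries to animals, so p-values measure only the spread between these libraries.

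Few genes passed the threshold for the average of both drugs, and the called changes were small. At an adjusted p under 0.05 in the quasi-likelihood test of edgeR, 31 of 14451 genes tested (0.215%) were called. Of these, 15 (0.104% of all tested) were higher and 16 (0.111%) lower than in plain-chow aorta. The absolute log2 fold change of the called genes had a median of 0.27 and ran from 0.14 to 0.80. Before adjustment, 2280 genes had a p under 0.05, and 184 had an adjusted p under 0.1. Over all genes tested, the median absolute log2 fold change was 0.078, beside a median SE of 0.074. Of the 314 genes past 1.5-fold in either direction, 3 were called: Sfrp4, Aifm3 and Nkain1, all of them lower. The call of Nkain1 was lost without control 6, its highest control.

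**Figure D1:**
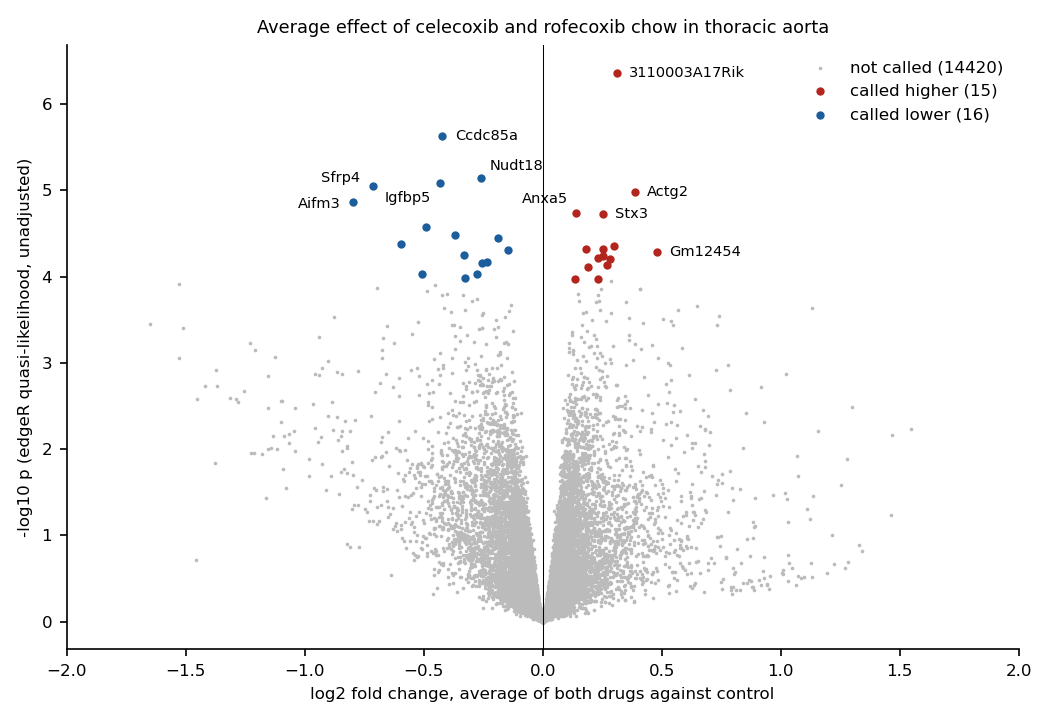
Average log2 fold change of both drugs against control (x axis) and -log10 of the unadjusted edgeR p (y axis) for 14451 genes, with the 15 genes called higher in red and the 16 called lower in blue. The called genes lie within 0.80 log2 units of 0, and 3110003A17Rik has the smallest p.

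The number of called genes depended on single libraries. Without control 3, 1 gene was called, 3110003A17Rik, and without control 7 there were 3. The count was 5 without control 1, 7 without control 5, 7 without rofecoxib 3, 8 without celecoxib 5, 9 without rofecoxib 2, 10 without celecoxib 3 and 10 without rofecoxib 1. It was 12 without rofecoxib 7, 15 without celecoxib 7 and 17 without control 2 or control 8. It rose to 51 without rofecoxib 6 and to 58 without control 4. Without control 6, 38 genes were called, 20 of them among the 31. With control 6 and rofecoxib 2 both left out, 21 were called, 12 of them among the 31. None of the 31 genes changed sign in any of these fits.

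**Figure D2:**
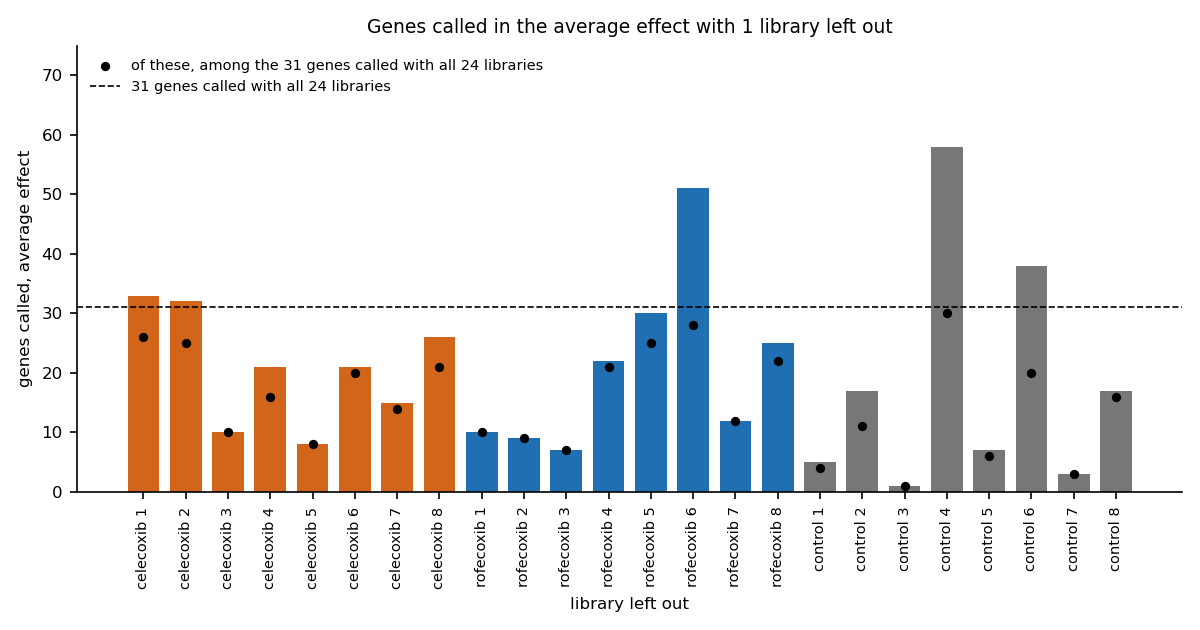
Genes called in the average effect (bars, y axis) when the library named on the x axis is left out, coloured by group, with points for how many of them are among the 31 genes called with all 24 libraries. The counts run from 1 without control 3 to 58 without control 4.

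The gene with the smallest p was 3110003A17Rik, whose current symbol is Abracl (ENSMUSG00000078453, mm9 chr10:17730867-17743260), a small protein of the Costars family. It lay between 24.4 and 31.7 CPM in the 8 controls (median 27.8), between 30.1 and 36.6 with celecoxib (median 33.7) and between 32.4 and 37.1 with rofecoxib (median 34.9). All 8 rofecoxib libraries and 5 of the 8 celecoxib libraries lay above every control, and all 16 drug libraries lay above the control mean. The average log2 fold change was 0.31 ± 0.05 (SE; edgeR adjusted p = 0.00632). It was called in 24 of 24 fits with 1 library left out, with adjusted p from 0.00113 to 0.0304. It is the one gene of the 31 for which this held.

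The lowest p among the genes that fell was that of Ccdc85a, a coiled-coil protein (ENSMUSG00000032878, mm9 chr11:28285483-28484526). It lay between 11.1 and 14.5 CPM in controls (median 13.3), between 7.66 and 9.96 with celecoxib (median 9.22) and between 8.78 and 12.9 with rofecoxib (median 10.2). Every celecoxib library was below every control, while the rofecoxib range reached into that of the controls. The average log2 fold change was -0.42 ± 0.07 (edgeR adjusted p = 0.0170), and the call was lost in 1 of 24 fits, without control 3 (adjusted p = 0.0589).

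Promoter windows of these 2 genes, from 250 bases before to 50 bases after the start of the gene, are shown because they lead the list in either direction. They come from the RefSeq table for GRCm38.p6, whose coordinates differ from the mm9 ones above: chr10:18023203-18023502 for 3110003A17Rik and chr11:28584275-28584574 for Ccdc85a, both on the minus strand and written 5′ to 3′. Capitals mark the motifs found on either strand, an E-box and a GC box in the first and 2 CCAAT boxes in the second.
3110003A17Rik: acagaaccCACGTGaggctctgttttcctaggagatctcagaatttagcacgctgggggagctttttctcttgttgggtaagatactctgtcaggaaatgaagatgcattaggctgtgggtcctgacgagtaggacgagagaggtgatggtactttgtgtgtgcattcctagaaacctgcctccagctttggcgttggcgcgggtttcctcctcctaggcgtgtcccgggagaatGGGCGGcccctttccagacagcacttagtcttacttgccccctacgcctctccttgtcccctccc
Ccdc85a: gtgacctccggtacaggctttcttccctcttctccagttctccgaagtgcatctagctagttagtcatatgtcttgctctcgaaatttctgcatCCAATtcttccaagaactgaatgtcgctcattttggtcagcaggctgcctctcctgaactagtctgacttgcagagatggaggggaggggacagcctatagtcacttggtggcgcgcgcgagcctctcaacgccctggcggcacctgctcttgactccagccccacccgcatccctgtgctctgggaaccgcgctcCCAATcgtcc

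The table holds a window for 10960 of the 14451 genes tested and for 26 of the 31 called. The E-box (CACGTG) was in 10.0% of the windows of all genes tested and in 4 of the 26. The GC box (GGGCGG) was in 18 of the 26, beside 6954 of the 10960. For the CCAAT box (CCAAT), the counts were 8 of 26 and 4204 of 10960. The TATA box (TATAAA) was in 3 of 26 and 781 of 10960, the AP-1 site (TGANTCA) in 2 and 550, and the glucocorticoid receptor core (AGAACA) in 2 and 1320. The cyclic AMP response element (TGACGTCA) was in none of the 26 and in 349 of the 10960. No motif spelled here is part of another, and both strands were searched. The CArG box, the site of serum response factor, was added to the search later. It was in 1.35% of all windows, in 3 of 20 windows of the smooth muscle list (Myl9, Srf and Vcl) and, among the called genes, in that of Anxa5. These are descriptions of letters in the windows.

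Contractile genes of smooth muscle were among those that rose. Of 25 genes on the smooth muscle contraction list, all were tested, 3 (12%) rose and none fell, beside 0.104% called higher over all genes tested. The list had a median log2 fold change of 0.15, with 23 of 25 values above 0, beside a median of 0.00 over all genes tested. Acta2, the main smooth muscle actin and the most abundant gene of the list, missed the threshold (0.29 ± 0.06, edgeR adjusted p = 0.0503). The median was 0.10 without control 6. With 1 library left out in turn, between 0 and 4 members were called, and with DESeq2 6 were. Over all genes, the leave-one-out fits called between 1 and 58, and DESeq2 called 298. In a bulk sample, a larger share of smooth muscle and more RNA per cell cannot be told apart.

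Actg2, the gamma actin of smooth muscle (ENSMUSG00000059430, mm9 chr6:83462697-83486461), lay between 241 and 321 CPM in controls (median 301), between 313 and 464 with celecoxib (median 419) and between 293 and 406 with rofecoxib (median 369). Of the 16 drug libraries, 13 lay above every control. The average log2 fold change was 0.39 ± 0.07 (edgeR adjusted p = 0.0254). The call was lost in 3 of 24 fits, without control 1, 3 or 7, with an adjusted p of up to 0.0803. Actin genes are alike in sequence, so reads may be shared among them.

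Tagln, the actin-binding protein transgelin (ENSMUSG00000032085, mm9 chr9:45737509-45744343), lay between 6419 and 8332 CPM in controls (median 7593), between 7408 and 9899 with celecoxib (median 9039.9) and between 8740.4 and 9249 with rofecoxib (median 8987). The rofecoxib libraries were close together and all above the controls, and 14 of the 16 drug libraries exceeded every control. Its log2 fold change was 0.25 ± 0.05 (edgeR adjusted p = 0.0413, called in 8 of 24 fits with 1 library left out). Control 6, which had the lowest smooth muscle sum, was among the libraries without which the call was lost. The span of Tagln overlaps Pcsk7, at 43.8 CPM.

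Tpm1, the tropomyosin that lies along actin filaments (ENSMUSG00000032366, mm9 chr9:66870195-66897415), had medians of 2107 CPM in controls, 2512 with celecoxib and 2541 with rofecoxib. Its lowest and highest levels were 1932 and 2378 in controls, 2295 and 2774 with celecoxib, and 2213 and 2753 with rofecoxib. The ranges overlapped, with 13 drug libraries above every control. The log2 fold change was 0.23 ± 0.05 (edgeR adjusted p = 0.0413, called in 6 of 24 fits). This call, too, was lost without control 6.

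Other called genes that rose also encode proteins of the actin cytoskeleton, though they were on no list here and were grouped after their values were seen. Csrp1, a LIM protein that binds actin crosslinkers (ENSMUSG00000026421, mm9 chr1:137616436-137649011), rose from 2033 ± 149 CPM (SD, n = 8) to 2601 ± 306 with celecoxib and 2402 ± 225 with rofecoxib (n = 8 each; average log2 fold change 0.30 ± 0.06, edgeR adjusted p = 0.0413). Tmsb4x, thymosin beta 4, which holds actin monomers (ENSMUSG00000049775, mm9 chrX:163644823-163647449), rose from 2689 ± 153 to 2962 ± 169.8 and 3151 ± 135 CPM (0.18 ± 0.04, edgeR adjusted p = 0.0413). Both had 13 of 16 drug libraries above every control. With 1 library left out, Csrp1 was called in 11 of 24 fits and Tmsb4x in 8. Both calls were lost without control 6.

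Anxa5, annexin A5, a phospholipid-binding protein with anticoagulant activity (ENSMUSG00000027712, mm9 chr3:36347645-36374967), showed one of the smallest called changes. Controls lay between 299 and 333 CPM (median 312), celecoxib libraries between 330.4 and 355 (median 337) and rofecoxib libraries between 326 and 369 (median 347). The groups were narrow, so that 14 of 16 drug libraries exceeded every control with a log2 fold change of only 0.14 ± 0.03 (edgeR adjusted p = 0.0300, called in 15 of 24 fits). It was the 1 called gene of 25 tested on the haemostasis list (4%, beside 0.215% of all genes tested), whose median was 0.05. Stx3, a syntaxin of vesicle fusion (ENSMUSG00000041488, mm9 chr19:11849407-11894095), rose from 20.3 ± 1.03 to 25.02 ± 2.56 CPM with celecoxib and 23.3 ± 1.27 with rofecoxib (0.25 ± 0.05, edgeR adjusted p = 0.0300, 16 fits).

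The largest rise among the called genes was in Gm12454, a gene model at 4.19 ± 0.604 CPM in controls, 6.39 ± 0.915 with celecoxib and 5.35 ± 0.906 with rofecoxib (log2 fold change 0.48 ± 0.10, edgeR adjusted p = 0.0413). Its span overlaps Car9, a carbonic anhydrase gene that was not called (0.35, adjusted p = 0.187). Whether counting used the strand is not stated, and without it reads of these genes cannot be told apart. The other genes that rose had log2 fold changes between 0.14 and 0.28. They were Mllt11, 1700019E19Rik (now Ift43, a subunit of intraflagellar transport), 1500012F01Rik (now Zfas1, a host of small nucleolar RNAs), Lin52, a subunit of the DREAM cell cycle complex, Fam33a (now Ska2, a kinetochore protein) and Rps3a. Rps3a is a protein of the small ribosomal subunit with near-identical copies in the genome, so its level is uncertain. The list of cytosolic ribosomal protein genes does not hold Rps3a, and of its 49 genes tested none was called, with a median of 0.09 and 47 values above 0. With DESeq2, 13 of the 49 were called, beside 298 of all 14451 genes.

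**Figure D3:**
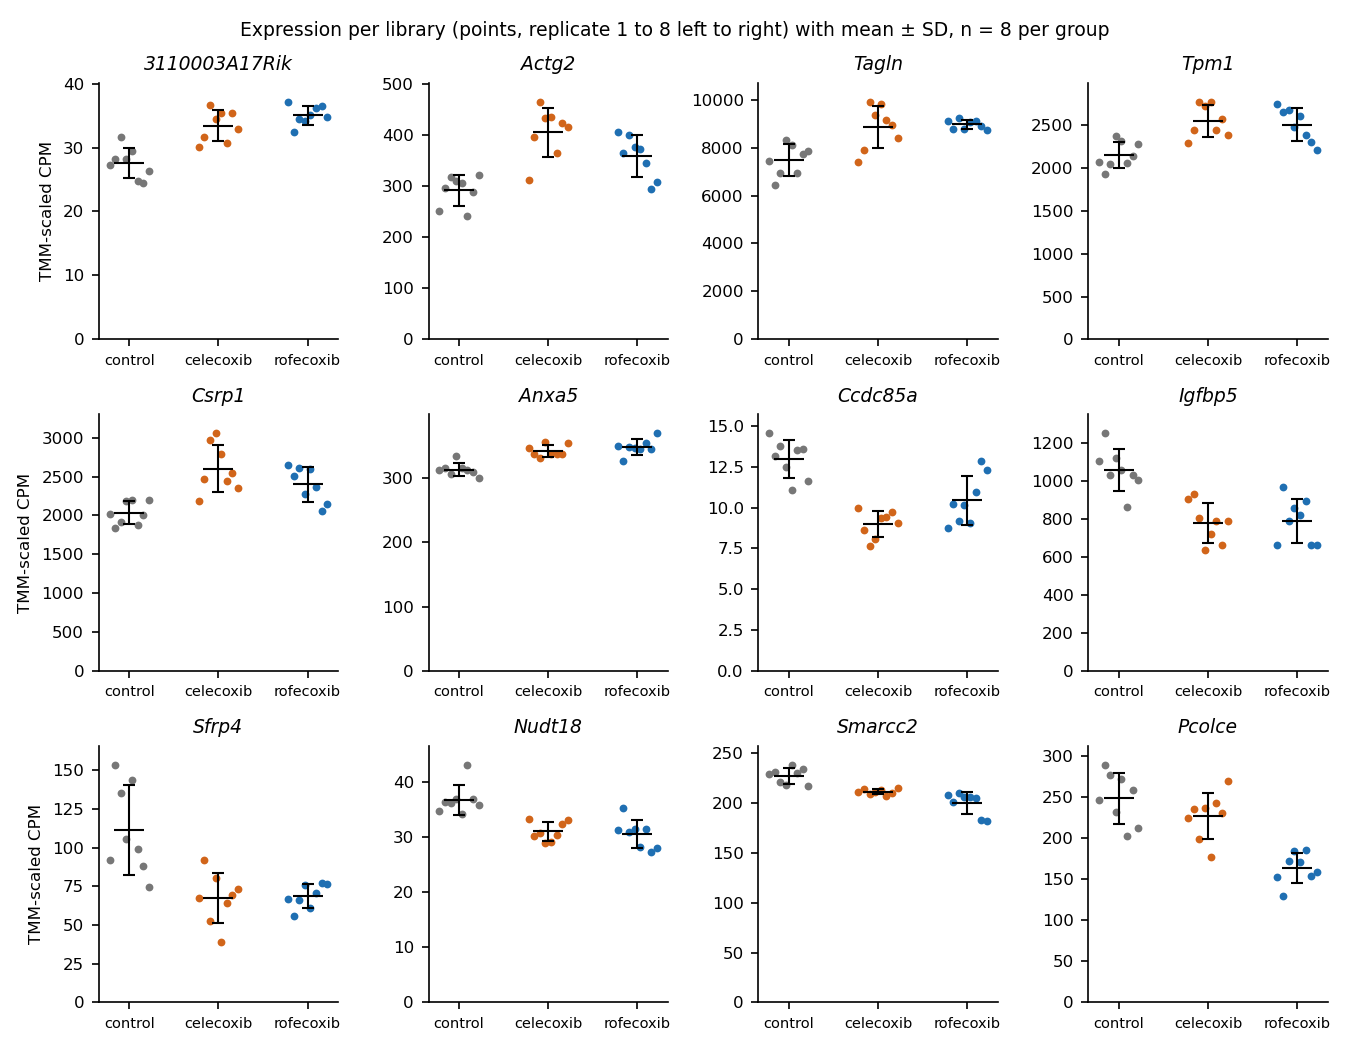
TMM-scaled CPM (y axis) of 12 genes called in the average effect in each of the 24 libraries, by group (x axis), with the mean and SD of 8 libraries. The top row and the first panels of the second row show genes that rose and the others genes that fell; only for Smarcc2 do the 16 drug libraries lie apart from all 8 controls.

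Among the genes that fell, 4 described here encode secreted proteins, a grouping made after their values were seen. Igfbp5, which binds insulin-like growth factors (ENSMUSG00000026185, mm9 chr1:72904304-72921660), lay between 866 and 1251 CPM in controls (median 1046), between 637 and 933 with celecoxib (median 791) and between 661 and 967 with rofecoxib (median 806). The medians of the drugs lay close together, and 7 of 8 controls lay above every drug library. The average log2 fold change was -0.43 ± 0.08 (edgeR adjusted p = 0.0254), and the call was lost without control 1, 3 or 7 (adjusted p up to 0.0616). Igfbp5 was the 1 called gene of 17 tested for the insulin-like growth factor axis (5.88%, beside 0.215% of all genes tested). The median of that list was 0.02.

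Sfrp4, a secreted antagonist of Wnt ligands (ENSMUSG00000021319, mm9 chr13:19714771-19725065), lay between 74.6 and 153 CPM in controls (median 102), between 39.3 and 92.3 with celecoxib (median 68.3) and between 56.1 and 77.4 with rofecoxib (median 68.8). All 16 drug libraries were below the control mean, and 11 were below every control. The average log2 fold change was -0.71 ± 0.13 (edgeR adjusted p = 0.0254), and the call was lost without control 3 or control 5 (adjusted p up to 0.0728). It was the 1 called gene of 27 tested on the Wnt list (3.7%, beside 0.215% of all genes tested), whose median was -0.04. Wnt5a on the same list stood at -0.44 ± 0.12 (edgeR adjusted p = 0.0980).

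Pcolce, which enhances the trimming of procollagen (ENSMUSG00000029718, mm9 chr5:138046129-138055214), lay between 202 and 289 CPM in controls (median 252), between 176 and 269 with celecoxib (median 233) and between 129 and 186 with rofecoxib (median 165). Only the rofecoxib libraries lay apart from the controls, and the average of -0.37 ± 0.07 (edgeR adjusted p = 0.0413, called in 12 of 24 fits) lies between 2 unequal values. It was the 1 called gene of 27 tested for collagen processing and crosslinking (median -0.03), which is 3.7% beside 0.215% of all genes tested. Of 22 collagen genes tested, none was called (median -0.07). Angptl2, an angiopoietin-like protein (ENSMUSG00000004105, mm9 chr2:33071387-33103439), fell from 277 ± 22.8 to 208 ± 31.1 CPM with celecoxib and 234 ± 27.7 with rofecoxib (-0.33 ± 0.07, edgeR adjusted p = 0.0494, called in 4 of 24 fits). Fibroblast and adventitia markers, of which none of 20 was called, had a median of -0.16 on average; their summed level was 7203 to 9886 CPM in controls, 7465 to 10473 with celecoxib and 4871 to 8392 with rofecoxib, and their part in these changes was not tested.

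Smarcc2, a scaffold subunit of the BAF chromatin remodelling complex (ENSMUSG00000025369, mm9 chr10:127896090-127927431), was the only gene of the 14451 tested (0.00692%) whose 16 drug libraries all lay outside the 8 controls. Controls lay between 217 and 238 CPM (median 229), celecoxib libraries between 207 and 215 (median 210.4) and rofecoxib libraries between 182 and 210.2 (median 205). The gap between the lowest control and the highest drug library was small, and so was the log2 fold change of -0.14 ± 0.03 (edgeR adjusted p = 0.0413, called in 12 of 24 fits). With GC correction the genes lying apart were Bckdk and Ccdc85a instead, and with library totals alone Stx3.

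Nudt18, a hydrolase of oxidised guanine nucleotides (ENSMUSG00000045211, mm9 chr14:70977452-70982580), lay between 34.1 and 43.0 CPM in controls (median 36.3), between 29.0 and 33.2 with celecoxib (median 30.5) and between 27.3 and 35.2 with rofecoxib (median 31.1). All but 1 drug library lay below every control. Its average log2 fold change was -0.26 ± 0.05 (edgeR adjusted p = 0.0254), and the call was lost without control 3 or control 7 (adjusted p up to 0.0616). Bckdk, the kinase that switches off breakdown of branched-chain amino acids, fell from 64.8 ± 8.51 to 56.2 ± 2.95 CPM with celecoxib and 53.9 ± 1.69 with rofecoxib (-0.23 ± 0.05, edgeR adjusted p = 0.0414, 8 of 24 fits). In both genes control 6 was the highest control, at 43.0 CPM for Nudt18 and 84.7 CPM for Bckdk. Slc38a10, an amino acid transporter, Art4, a cell surface ADP-ribosyltransferase, Entpd4 (-0.27), a nucleotide hydrolase with a near-identical neighbour gene that makes its level uncertain, and Nkain1 (-0.59) were the other genes that fell and whose drug difference missed the threshold. Nkain1 (edgeR adjusted p = 0.0413) was called in 12 of 24 fits and not without control 6, which stood at 6.23 CPM. The other controls stood at 3.35 to 4.08 CPM. With 1 library left out, its value ran from -0.62 to -0.47. Against control, Nkain1 stood at -0.43 ± 0.14 for celecoxib and -0.76 ± 0.14 for rofecoxib, and Art4 at -0.18 ± 0.06 and -0.33 ± 0.06.

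The drugs were set against each other for the same genes, in a contrast that uses no control library. Of the 31 genes, 6 (19.4%) also differed between celecoxib and rofecoxib, close to the 22.7% (3275 genes) called in that contrast over all genes tested. Aifm3, a relative of apoptosis-inducing factor, had medians of 4.09 CPM in controls, 3.21 with celecoxib and 1.65 with rofecoxib. Its log2 fold change against control was -0.32 ± 0.17 for celecoxib and -1.27 ± 0.18 for rofecoxib, and the difference was 0.95 ± 0.18 (edgeR adjusted p = 0.00165). The highest rofecoxib library (2.19 CPM) lay below the lowest control (2.32 CPM), while the celecoxib range of 2.14 to 4.58 overlapped the control range up to 5.23. The average of -0.80 ± 0.15 (edgeR adjusted p = 0.0280) lies between unequal values, and its call was lost without control 1, 3, 5 or 7 (adjusted p up to 0.0803).

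D630003M21Rik, Pcolce, E2f1 and Hic1 had the same pattern. D630003M21Rik stood at -0.18 ± 0.11 for celecoxib and -0.80 ± 0.11 for rofecoxib (difference 0.63 ± 0.11, edgeR adjusted p = 0.00144). Pcolce stood at -0.13 ± 0.09 and -0.60 ± 0.09 (difference 0.47 ± 0.09, edgeR adjusted p = 0.00144). E2f1, a transcription factor of cell cycle entry, stood at -0.12 ± 0.08 and -0.54 ± 0.08 (difference 0.42 ± 0.08, edgeR adjusted p = 0.00167). Hic1, a transcriptional repressor, stood at -0.29 ± 0.13 and -0.72 ± 0.13 (difference 0.43 ± 0.13, edgeR adjusted p = 0.0204). Each fell further with rofecoxib. Lin52 rose further with rofecoxib, at 0.10 ± 0.06 for celecoxib and 0.37 ± 0.06 for rofecoxib (difference -0.27 ± 0.06, edgeR adjusted p = 0.00326). E2f1 was the 1 called gene of 31 tested on the cell cycle list (median -0.04), which is 3.23% beside 0.215% of all genes tested. Transcript GC fraction was 0.53 for Aifm3, 0.55 for D630003M21Rik and Pcolce, 0.58 for E2f1, 0.65 for Hic1 and 0.44 for Lin52. The median over all genes tested was 49.9%. Over those genes, celecoxib minus rofecoxib had a Spearman's rho of 0.54 with GC content. How far GC content takes part in the differences of single genes was not tested.

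For the other 25 called genes the drug difference missed the threshold, and 8 of them had 95% intervals of celecoxib minus rofecoxib that exclude 0 before any adjustment. These were Ccdc85a (-0.38 to -0.05), Actg2 (0.01 to 0.34), Nkain1 (0.04 to 0.63), Gm12454 (0.03 to 0.48), Art4 (0.03 to 0.28), Smarcc2 (0.0066 to 0.15), Tmsb4x (-0.18 to -0.00055) and Angptl2 (-0.34 to -0.00039). In the other 17 the interval held 0. It was -0.18 to 0.04 for 3110003A17Rik, -0.20 to 0.17 for Igfbp5, -0.09 to 0.13 for Nudt18, -0.14 to 0.10 for Tagln and -0.09 to 0.14 for Tpm1. It was wider for Sfrp4, at -0.34 to 0.28. Differences inside a gene's interval are compatible with these data. The drugs share the 8 control libraries, so the 2 values against control are not independent, and what they have in common was not counted as a result.

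**Figure D4:**
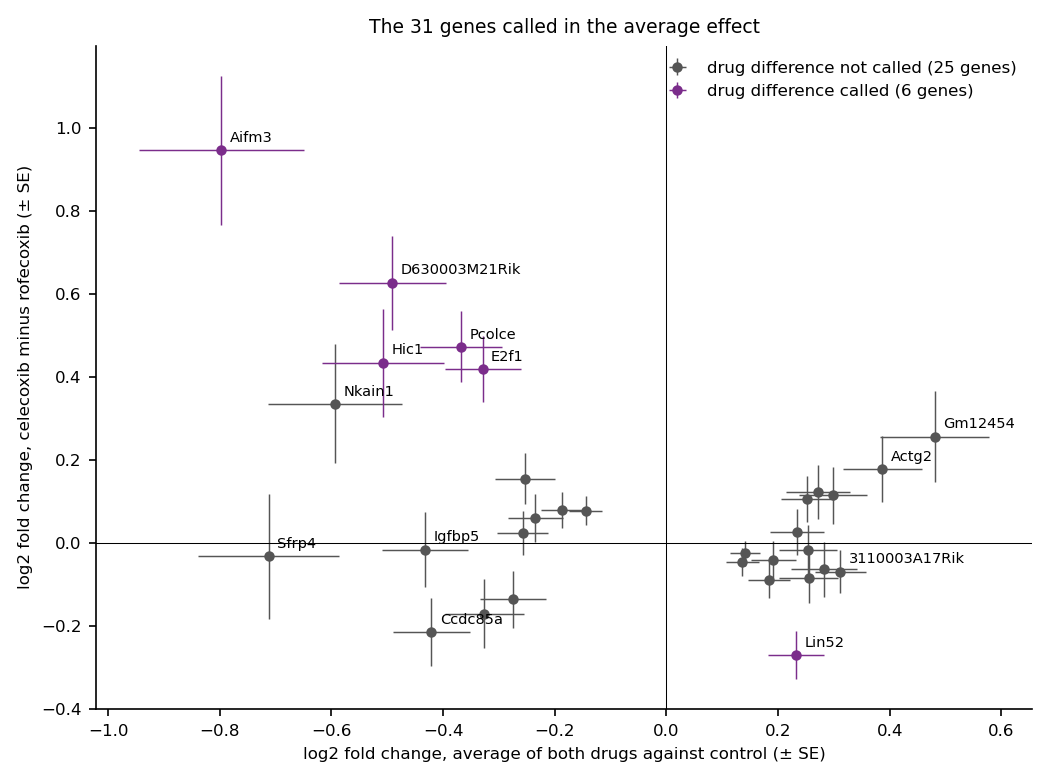
Average log2 fold change against control (x axis) and celecoxib minus rofecoxib (y axis) for the 31 called genes, each with its SE, with the 6 genes that also differed between the drugs in purple. Sfrp4, Igfbp5 and 3110003A17Rik lie near 0 on the y axis, and Aifm3 lies highest at 0.95.

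No gene of the targeted pathway was called in the average effect, beside 0.215% of all genes tested. At that share a short list is likely to hold no called gene. The same holds for the other lists with none called. Of 22 genes tested for prostanoid synthesis and receptors, the smallest adjusted p was 0.2002 by edgeR. Of these, 4 had an unadjusted p under 0.05, beside 2280 of all 14451 genes, a similar share. The median of the list was -0.08, with 18 of 22 values below 0. Ptgs2 lay between 13.3 and 62.4 CPM in controls (median 37.0), between 13.9 and 25.6 with celecoxib (median 22.3) and between 30.9 and 53.4 with rofecoxib (median 42.9). The celecoxib and rofecoxib ranges did not meet, while the controls spanned both. The average of -0.28 ± 0.19 (edgeR adjusted p = 0.488) joined -0.81 ± 0.23 for celecoxib and 0.26 ± 0.22 for rofecoxib, which differed by -1.06 ± 0.23 (edgeR adjusted p = 0.00348). The GC fraction of Ptgs2 was 0.40, and its part in this difference was not tested.

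Ptgs1 lay at 18.2 ± 2.52 CPM in controls, 17.8 ± 2.82 with celecoxib and 17.3 ± 4.63 with rofecoxib, with an average of -0.06 ± 0.12 and a 95% interval from -0.30 to 0.19. Ptgis, the prostacyclin synthase, was the most abundant of the named prostanoid genes in CPM, which does not adjust for gene length. It had medians of 989, 1217 and 923 CPM in controls, celecoxib and rofecoxib, an average of 0.11 ± 0.07 and a drug difference of 0.30 ± 0.08 (edgeR adjusted p = 0.00940). Ptges, an inducible prostaglandin E synthase, stood at -0.42 ± 0.16 (edgeR adjusted p = 0.204) and below the control mean in 15 of 16 drug libraries. Ptgir, the prostacyclin receptor, stood at -0.26 ± 0.14, and Tbxas1, the thromboxane synthase, at -0.02 ± 0.17. Tbxa2r, the thromboxane receptor, stood at -0.04 ± 0.07, with 0.11 ± 0.08 for celecoxib and -0.19 ± 0.08 for rofecoxib (difference 0.30 ± 0.08, edgeR adjusted p = 0.0149). The average of Tbxas1 changed sign in leave-one-out or covariate alternatives, and that of Tbxa2r in GC correction or covariate alternatives. These values were near 0. GC fractions were 0.57 for Ptgis and 0.63 for Tbxa2r, and their part in the drug differences was not tested.

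Genes of other systems that set vascular tone were not called either, beside the same 0.215% of all genes tested. Of 26 genes of nitric oxide and cyclic GMP, none was called and the median was 0.01. Nos3, the endothelial nitric oxide synthase, stood at 0.12 ± 0.14 on average, with medians of 37.2 CPM in controls, 51.0 with celecoxib and 35.1 with rofecoxib, and a drug difference of 0.46 ± 0.16 (edgeR adjusted p = 0.0399). Of 16 genes of the renin-angiotensin and endothelin systems, none was called and the median was 0.10. Ace, the angiotensin-converting enzyme, stood at 0.00 ± 0.09 on average and differed by 0.39 ± 0.10 between the drugs (edgeR adjusted p = 0.0110). GC fractions were 0.58 for Nos3 and 0.56 for Ace, and their part in the drug differences was not tested. Agtr1a, an angiotensin receptor, stood at 0.23 ± 0.21 with a 95% interval from -0.21 to 0.67. Its value rests on single controls, at 0.46 without control 6, the highest, and 0.14 without control 3. Without control 3 the median of the list was 0.05.

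The most negative list median was that of lipid synthesis genes, none of which was called. Of 24 genes of fatty acid and triglyceride synthesis, 23 had values below 0 and the median was -0.65. Members named from here on that were not called were picked after their values were seen. Fasn, the fatty acid synthase, lay between 219 and 3019 CPM in controls (median 515), between 156 and 460.5 with celecoxib (median 269) and between 221 and 497 with rofecoxib (median 277). The value of 3019 is control 6, and the next control was at 869. Fasn stood at -1.53 ± 0.33 (edgeR adjusted p = 0.0529) with all libraries and at -0.85 ± 0.23 (adjusted p = 0.107) without control 6. Srebf1, the transcription factor that drives these enzymes, stood at -0.39 ± 0.09 and, without control 6, at -0.26 ± 0.06 (edgeR adjusted p = 0.0614 and 0.0729). Without control 6 the median of the list was -0.30. Of the 24 members, 7 were called without control 4 and 12 with DESeq2. Over all genes, those fits called 58 and 298.

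Brown adipocyte markers (16 tested) had a median of -0.47, white and general adipocyte markers (18) of -0.39, fatty acid oxidation (32) of -0.37 and oxidative phosphorylation (49) of -0.19, with none called. Without control 6 these medians were -0.13, -0.03, -0.08 and -0.01. White and general adipocyte markers summed to 11484 CPM in control 6, 1941 to 6108 in the other controls, 2476 to 4758 with celecoxib and 2466 to 6228 with rofecoxib. With the mean level of brown adipocyte markers added to the model, 1 gene was called in the average effect, 3110003A17Rik. How far fat around the vessel takes part in the other calls was not tested further.

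**Figure D5:**
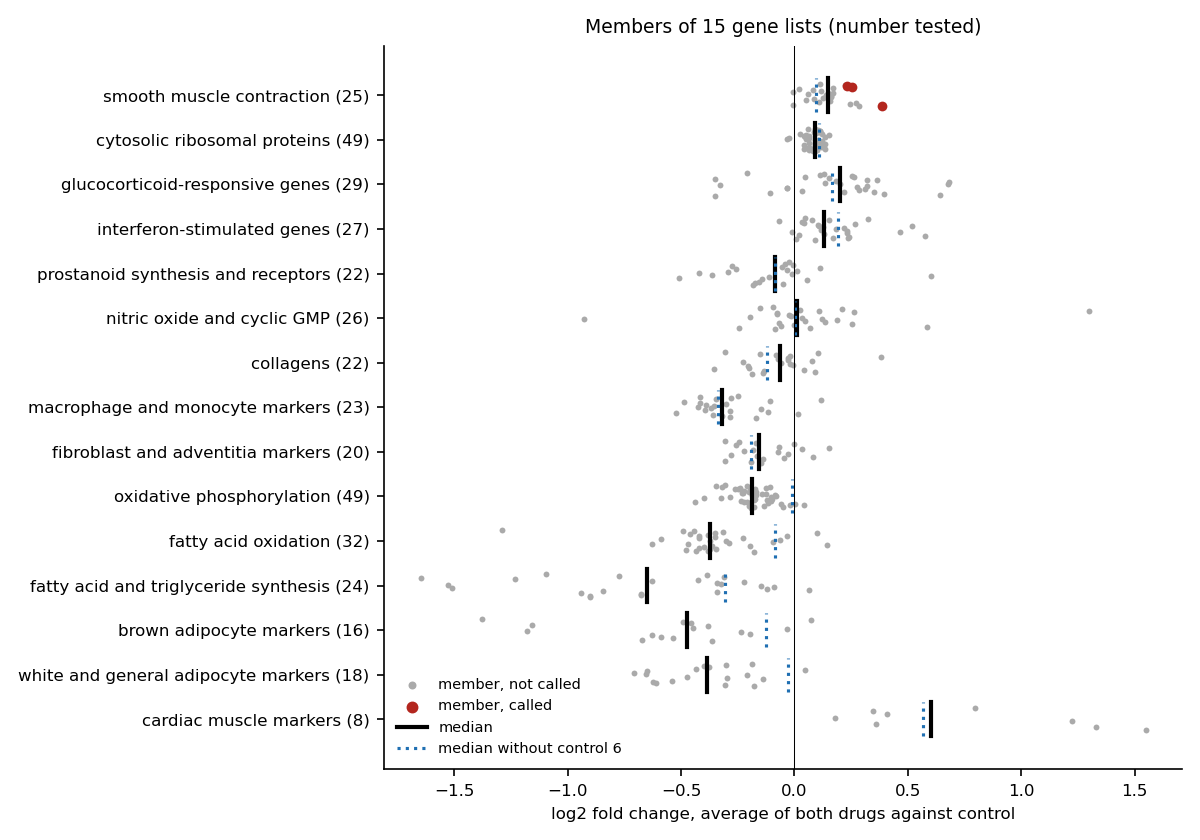
Average log2 fold change of the members of 15 lists (x axis; number tested in parentheses), with called members in red, the median as a black line and the median without control 6 as a dotted blue line. The 3 called members are in the smooth muscle list, and leaving out control 6 moves the fat and oxidation lists toward 0.

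Macrophage and monocyte markers had a median of -0.32 with 21 of 23 values below 0, and none was called. Their summed level was 331 to 549 CPM in controls, 249 to 526.1 with celecoxib and 190.1 to 399 with rofecoxib, so the ranges overlapped. Laptm5, a lysosomal protein of blood cells, stood at -0.49 ± 0.14 (edgeR adjusted p = 0.106) and Cd14, a receptor for bacterial lipopolysaccharide, at -0.52 ± 0.15 (edgeR adjusted p = 0.102). The median was -0.34 without control 6. Il33, an alarmin cytokine that is not one of these markers, stood at -0.42 ± 0.10 (edgeR adjusted p = 0.0545) and was called without control 6 (-0.47, adjusted p = 0.0385). The 21 adhesion molecules, chemokines and cytokines tested had a median of -0.03, with 9 values above 0 and 12 below.

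Glucocorticoid-responsive genes had a median of 0.20 and 22 of 29 values above 0, with none called. The list's medians against control were 0.30 for celecoxib and 0.04 for rofecoxib, and 13 of the 29 genes (44.8%) differed between the drugs, beside 22.7% of all genes tested. This list, like the others, was written with earlier results of these data known. Over the 41 lists the share ran from 0% to 48.1% (collagen processing and crosslinking), and it was 45.5% for collagens. Nfkbia, the inhibitor of NF-kB, stood at 0.36 ± 0.09 on average (edgeR adjusted p = 0.0716). Interferon-stimulated genes had a median of 0.13 with 25 of 27 values above 0 and none called. That median was 0.02 without rofecoxib 5 and 0.25 without control 5. Genes of the NRF2 antioxidant response had a median of -0.13 with 25 of 28 values below 0, and of -0.09 without control 6. None of these was called. With DESeq2, 5 of the 28 were, beside 298 of all 14451 genes. G6pdx, the first enzyme of the pentose phosphate pathway, stood at -0.28 ± 0.06 (edgeR adjusted p = 0.0576). It was called without control 6 (-0.18, edgeR adjusted p = 0.0277). Cardiac muscle markers (8 tested) had a median of 0.60, which was -0.03 without rofecoxib 2. Of the 41 lists, 6 held a called gene.

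Libraries differed in how expression varied with the GC content of the transcript. The slope of a library, in log2 CPM per unit of GC fraction, was -0.14 ± 1.30 in the 16 drug libraries and 0.28 ± 0.85 in the 8 controls (SD; difference -0.43, two-sided exact permutation test p = 0.412). It was 0.77 ± 0.91 with celecoxib and -1.06 ± 0.94 with rofecoxib (SD, n = 8 each), so the drugs lay on either side of the controls. Across 14075 genes, which are not independent, the average log2 fold change had a Spearman's rho of -0.23 with GC content, and celecoxib minus rofecoxib one of 0.54. With GC correction, 57 genes were called in the average effect, 26 of them among the 31, and 1395 between the drugs. Median GC content was 49.2% in the 15 genes that rose, 53.8% in the 16 that fell and 49.9% in all genes tested.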

How the data were processed

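Aorta RNA was measured in 24 libraries. The authors deposited whole-number counts per gene in 1 table of 25941 genes with mm9 coordinates; CASAVA 1.8.2, STAR 2.5.1b and mm9 were used per the submitters' processing notes, while for the counting tool and the annotation the sources used here name none. The filterByExpr rule on low counts kept 14451 genes; 1954 genes were at 0 in every library. A quasi-likelihood model of edgeR 4.0.16 (R 4.3.3) with TMM factors of 0.959 to 1.03, robust dispersion and 1 mean per group was fitted to all 24 libraries. Levels are TMM-scaled CPM. The average effect and the drug difference were tested as contrasts, with Benjamini-Hochberg adjustment over all genes tested. An SE equals the size of the log2 fold change over the square root of F, and 95% intervals use the t quantile of the fit.

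The groups came from the labels. The members, the 41 gene lists and the tests were chosen with earlier results of these data known. Lists are described by counts and medians, without a set test; 15 of their 1027 genes are not in the table. Named genes were, per direction, the 10 called genes of smallest p, the 5 of largest fold, called list members, the 3 called genes that differed most between the drugs, genes whose groups do not overlap, and 11 genes of vascular tone fixed by name, of which Ren1 did not pass the count filter. The text names part of them. Transcript GC content came from GENCODE M21 and was known for 14075 of the genes tested (97.4%). Of the 31 called genes, 14 overlap another gene of the table. Alternatives included DESeq2 1.42.0 and limma-voom (limma 3.58.1). The model was tested on simulated counts. Equal totals limit what can be said of depth, and p-values rest on the spread of counts between libraries.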

Additional observations from a re-analysis of the deposited data

Results flagged for a closer look

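In 162 groups of 8 libraries, 21 had a highest or lowest library far from the others for its gene or marker sum. The cutoff used gives about 1 in 20 for independent, normally distributed values. These groups come from the same 24 libraries, so that rate is no baseline for them. Control 6 was high in 8 of the 21. It stood at 43.0 CPM for Nudt18 (others 34.1 to 36.9), 6.23 for Nkain1 (3.35 to 4.08), 84.7 for Bckdk (58.2 to 66.4), 99.5 for Entpd4 (63.7 to 74.1) and 5.004 for Agtr1a (1.28 to 2.85). Its summed markers stood at 2068 CPM for brown adipocytes (374 to 813), 11484 for white and general adipocytes (1941 to 6108) and 863 for Schwann cells (299 to 445).

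Rofecoxib 5 was apart for Rps3a (565 CPM, others 609 to 634), Nos3 (63.3 CPM, others 20.2 to 38.7), lymphocyte markers (34.4 CPM) and blood cell markers (713 CPM). Rofecoxib 2 was apart for cardiac muscle markers (654 CPM, others 92.0 to 135) and skeletal muscle markers (111 CPM, others 34.2 to 67.3), and rofecoxib 8 for Bckdk (49.9 CPM). Celecoxib 2 was apart for Ptgs1 (24.1 CPM), Ptges (7.73 CPM) and lymphocyte markers (69.6 CPM), celecoxib 6 for blood cell markers (576 CPM), and celecoxib 7 for Schwann cell and nerve markers (1002 CPM, others 322 to 499.5). Control 3 was apart for Tbxas1 (2.89 CPM).

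The difference between the drugs passed edgeR's test for 11 of the 41 genes examined. Over all genes tested it passed for 3275 of 14451 (22.7%), a share close to that. In log2 units, celecoxib minus rofecoxib was 0.95 for Aifm3, 0.63 for D630003M21Rik, 0.47 for Pcolce, 0.42 for E2f1, 0.43 for Hic1 and -0.27 for Lin52, all called in the average effect. It was -1.06 for Ptgs2, 0.30 for Ptgis, 0.30 for Tbxa2r, 0.46 for Nos3 and 0.39 for Ace, none of which was. For Ptgs2 every rofecoxib library lay above every celecoxib library. Genes with a positive difference here had GC fractions from 0.53 (Aifm3) to 0.65 (Hic1). Lin52 and Ptgs2, with negative ones, had 0.44 and 0.40.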

How the results depend on the processing

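The count of genes called in the average effect (31, with 15 higher and 16 lower) moved with most settings. It was 9 (2 higher, 7 lower) with no count filter, 51 (26 and 25) at a mean count of at least 50, 298 (138 and 160) with DESeq2, 5 (1 and 4) with the drugs as 1 group, 57 (32 and 25) with GC correction, 1 (1 and 0) with the brown adipocyte covariate and 5 (2 and 3) with the skeletal muscle covariate. RLE size factors left 9 higher, and leaving out control 6 and rofecoxib 2 left 6 higher. DESeq2 and the count minimum of 50 called all 31 genes, and limma-voom 30 of them. With the replicate block, 5 genes were called (3 higher, 2 lower; 4 of the 31), and with the replicate block and GC correction 29 (21 higher, 8 lower; 15 of the 31). No label says whether replicate numbers pair the samples. Of 24 same-number pairs of libraries, 10 correlated above 0.1 (range -0.39 to 0.32). Their median was 0.043, beside 0.0028 for pairs of other numbers. Of 24 libraries, 5 correlated best with their own number. These values do not settle whether the samples are paired.

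With 1 library left out, the count ran from 1 to 58, with 1 to 23 higher and 0 to 35 lower. The drug difference (3275 genes) fell to 1395 with GC correction and 1503 with the replicate block and GC correction, and ran from 2147 (without rofecoxib 8) to 3739 with 1 library left out. Genes whose groups do not overlap numbered 2 with GC correction, 3 without control 6 and rofecoxib 2, and 1 to 4 with 1 library left out. The drug minus control GC slope ran from -0.58 to -0.26 and passed in no setting. The cause of these shifts was not tested.

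None of the 31 called genes reversed. Ace reversed to -0.00954 with library totals, -0.0298 with the brown adipocyte covariate, -0.0376 without control 6 and rofecoxib 2, and ran from -0.0617 to 0.0495 with 1 library left out. Tbxa2r reversed to 0.00791 with GC correction, 0.00536 with the replicate block and GC correction and 0.00108 with the skeletal muscle covariate. Tbxas1 reversed to 0.0641 with the skeletal muscle covariate and ran from -0.0824 to 0.0782 with 1 library left out.

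At the median SE of 0.074 over all genes tested, the smallest ratio of change to SE among the called genes (4.61) corresponds to a change of 1.27-fold, so smaller changes of a typical gene were out of reach. The title numbers, the equal totals and the unnamed animals limit what these tests show about the drugs.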
